A study of Mus musculus with 35 samples.

Results

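Whole-kidney RNA of FVB/NJ mice was measured for 5 keratin genes of simple epithelia (Krt7, Krt8, Krt18, Krt19 and Krt20) and for Vim, the gene for vimentin. The members were all probe sets that the array annotation assigns to one of these 6 genes alone, which gave 10 probe sets (3 each for Krt8 and Vim, 1 for each other gene) of 45101 on the array, and 6 of 18193 genes. The diabetic animals carried the OVE26 transgene, which makes calmodulin from an insulin promoter in pancreatic beta cells and thereby leaves the mice short of insulin, so hyperglycaemia in this model starts from the beta cell and not from the kidney. Control mice had no other label than control, and all groups shared the FVB/NJ strain. At 2 months of age 6 arrays were from diabetic and 6 from control kidneys, at 4 months 7 were diabetic and 4 control, and at 8 months again 6 and 6. Values are log2 signals as the authors deposited them; arrays have no read depth, and precision is limited by how many there are in a group.

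Keratins assemble as obligate pairs of a type II chain (Krt7 and Krt8 here) and a type I chain (Krt18, Krt19 and Krt20 here), and the resulting filaments give epithelial cells resistance to mechanical and toxic stress. Vimentin is the type III filament protein of fibroblasts, endothelial cells, leukocytes and podocytes. In the normal kidney Krt8 and Krt18 are found in tubular epithelium, most of all in the distal nephron and collecting duct, Krt7 and Krt19 are found in collecting ducts and urothelium, and Krt20 is a keratin of differentiated surface epithelia. Injured tubule cells are known to raise keratins and to acquire vimentin.

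Krt8 and Krt18 encode the pair of chains that most simple epithelia share, and the RefSeq annotation places them next to each other on chromosome 15 with 0 protein-coding genes between them. Krt7 lies on the same chromosome with 23 protein-coding genes, 22 of them keratins, between it and Krt8. Krt19 and Krt20 both lie on chromosome 11. RefSeq (GRCm38.p6) held a window of 250 bases before the start for 5 members, and 4 of these are given, those of Krt8 and Krt18 as the neighbouring pair and those of Krt20 and Vim as the windows that hold the letters TATAAA. Capitals mark these letters, a form of the TATA box. The windows are Krt8 at chr15:102004343-102004592 on the minus strand, Krt18 at chr15:102027966-102028215 on the plus strand, Krt20 at chr11:99438154-99438403 on the minus strand and Vim at chr2:13574061-13574310 on the plus strand, each written 5′ to 3′ along its gene.
Krt8: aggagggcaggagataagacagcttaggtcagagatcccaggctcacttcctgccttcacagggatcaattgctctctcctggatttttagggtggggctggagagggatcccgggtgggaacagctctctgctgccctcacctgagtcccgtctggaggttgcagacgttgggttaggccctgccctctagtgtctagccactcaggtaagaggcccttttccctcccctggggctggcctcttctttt
Krt18: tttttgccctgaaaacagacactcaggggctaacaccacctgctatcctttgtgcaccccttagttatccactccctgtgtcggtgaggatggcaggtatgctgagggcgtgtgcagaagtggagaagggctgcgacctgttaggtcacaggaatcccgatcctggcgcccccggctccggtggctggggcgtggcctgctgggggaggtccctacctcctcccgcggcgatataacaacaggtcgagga
Krt20: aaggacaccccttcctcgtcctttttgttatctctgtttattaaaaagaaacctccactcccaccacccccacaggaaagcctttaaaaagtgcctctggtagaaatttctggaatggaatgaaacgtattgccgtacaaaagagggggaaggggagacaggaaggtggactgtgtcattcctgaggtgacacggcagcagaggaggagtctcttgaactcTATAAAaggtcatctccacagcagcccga
Vim: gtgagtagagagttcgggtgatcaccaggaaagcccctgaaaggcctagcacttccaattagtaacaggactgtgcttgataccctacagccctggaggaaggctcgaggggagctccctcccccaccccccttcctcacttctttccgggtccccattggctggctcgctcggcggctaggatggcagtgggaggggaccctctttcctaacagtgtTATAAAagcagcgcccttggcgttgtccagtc
Motifs were searched on both strands, with overlaps between motifs allowed. TATAAA was present in 2 of the 5 windows, 32 to 27 bases before the start of Vim and 29 to 24 bases before the start of Krt20, and in 12.4% of 32851 windows of the same length. The AP-1 letters TGANTCA were in 0 of the 5 windows and in 6.75% of all windows. The letters TTCNNNGAA, a STAT form, were in 0 of 5 and in 7.02% of all windows. The GC box GGGCGG was in 1 of 5, that of Krt7 at chr15:101412153-101412402 on the plus strand, and in 32.7% of all windows. The G and C content was 66.0% for Krt7, 58.0% for Krt8, 60.4% for Krt18, 48.0% for Krt20 and 58.4% for Vim, beside a median of 52.4% over all windows. A match of letters is a description and no evidence of a bound factor.

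The arrays were checked before the results. The 11 proximal tubule markers averaged between 11.83 and 13.05 on every array, bright signals for the labelled tissue. At 2 months arrays 5 and 6 of diabetic and of control kidneys were separated from the rest along the leading principal component (42.8% of variance). Control array 6 was also at 2.56 for the log2 ratio of the 3′ to the 5′ beta-actin probe sets, against 0.815 to 1.35 elsewhere at 2 months. At 4 months control arrays 3 and 4 stood apart, at -18.0 and -18.6 on a component holding 29.4% of the variance, where control arrays 1 and 2 were at -2.16 and -6.24. The same arrays had 8.75 and 8.02 for the clock-controlled gene Dbp, where control arrays 1 and 2 had 10.38 and 10.63. Dbp was also low at other ages, at 8.26 and 7.95 on diabetic arrays 5 and 6 and 8.87 on control array 6 of 2 months, and at 8.25, 8.14 and 7.32 on diabetic arrays 1, 2 and 5 of 8 months. The other diabetic arrays of 8 months had 10.10 to 10.64 and the controls 9.48 to 10.88. At 8 months diabetic array 3 was at 39.0 on a component holding 48.4% of the variance, diabetic array 4 was at 3.00 and the other 4 diabetic arrays were between 10.1 and 17.0. The labels do not say that arrays of a group come from separate animals, so p-values measure the spread between these arrays. In whole-kidney RNA, more cells of a type and more RNA per cell cannot be told apart.

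Diabetic kidneys of 8 months had more signal than controls for all 6 genes. Krt20 was higher by 2.12 ± 0.22 on the log2 scale (SE, 4.34-fold), Krt19 by 1.99 ± 0.21 (3.98-fold), Krt18 by 1.10 ± 0.13 (2.15-fold), Vim by 0.89 ± 0.15 (1.85-fold), Krt8 by 0.67 ± 0.14 (1.59-fold) and Krt7 by 0.37 ± 0.12 (1.29-fold). The 2 type II chains thus showed smaller differences than the 3 type I chains, although differences between genes were not tested. The 5 members that passed the filter on dim probe sets were all called in the limma fit, where 16.8% of 13004 genes were called and 9.87% were called higher. Krt20, with a mean of 5.07 below the filter value of 5.27, was called in the limma fit over all 34945 probe sets of 1 gene, where 9.69% were called and 6.05% were called higher.

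**Figure D1:**
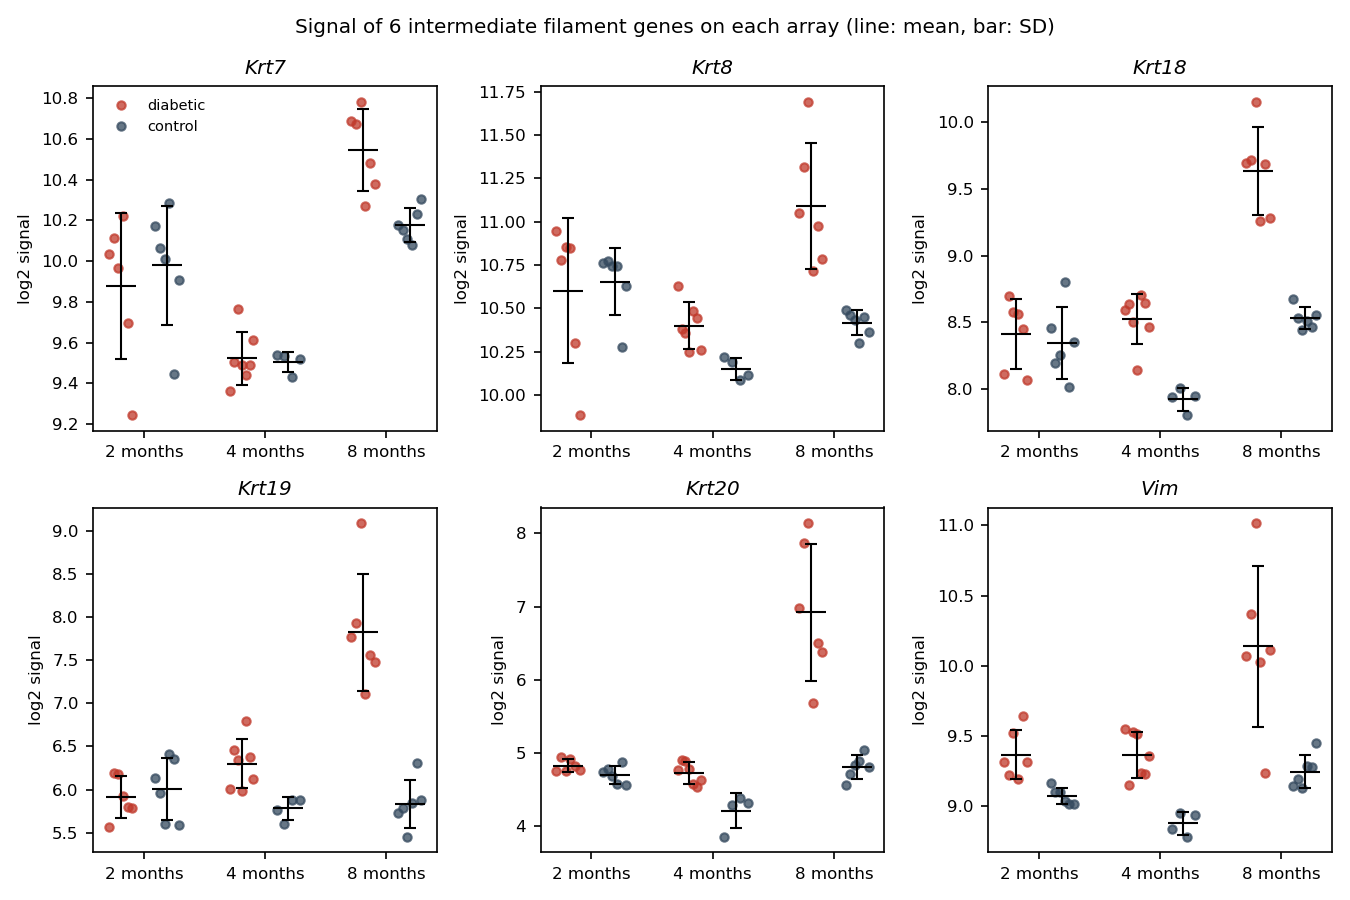
Each panel plots the log2 signal of 1 gene (vertical axis) on each of the 35 arrays, as points, by age (horizontal axis), with diabetic arrays in red left of control arrays in dark blue. Horizontal lines are group means and bars are SDs; at 8 months diabetic means lie above control means in all 6 panels, by 0.37 for Krt7 and by 2.12 for Krt20.

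Among the type II chains, Krt7, a partner of Krt18 and Krt19 in ducts, had signals of 10.69, 10.68, 10.78, 10.27, 10.48 and 10.38 in diabetic kidneys of 8 months and between 10.08 and 10.31 in controls, with a median of 10.17. Of the 6 diabetic arrays 5 were above the highest control and array 4 lay within the control range. The adjusted p of the limma fit was 0.0337 and the exact permutation test gave a two-sided p of 0.00433. Leaving out diabetic array 1, 2 or 3 or control array 1, 2, 3 or 4 in turn lost the call, with differences of 0.34, 0.35, 0.32, 0.37, 0.37, 0.36 and 0.35 and adjusted p between 0.055 and 0.0964 in limma.

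Krt8, the main type II chain of simple epithelia, had 11.05, 11.31, 11.69, 10.72, 10.97 and 10.79 in diabetic kidneys of 8 months, and 10.30 to 10.49 in controls with a median of 10.44. All 6 diabetic arrays were above all 6 controls, a separation upward that 5.41% of genes showed at that age, and the adjusted p was 0.000749 in limma. The other 2 probe sets of Krt8 were higher by 0.68 ± 0.14 and 0.50 ± 0.13, with adjusted p of 0.00117 and 0.00887 over all probe sets in limma. These probe sets follow age differently: in controls the first averaged 10.22 ± 0.05 at 8 months and 9.96 ± 0.24 at 2 months, while the second averaged 8.58 ± 0.12 at 8 months and 9.95 ± 0.21 at 2 months (SD, n = 6 each).

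Krt18, the usual type I partner of Krt8, had 9.70, 9.72, 10.16, 9.26, 9.69 and 9.29 in diabetic kidneys of 8 months and 8.45 to 8.67 in controls with a median of 8.52. The groups did not overlap, and the adjusted p was 1.91e-07 in limma. Krt19, a small keratin without the usual tail domain, had 7.77, 7.93, 9.09, 7.11, 7.57 and 7.48 in diabetic kidneys and 5.45 to 6.31 in controls with a median of 5.82. Its groups did not overlap either, its adjusted p was 2.64e-08 in limma, and it ranked 24 of 13004 genes by the size of the difference.

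Krt20, best known from urothelium and gut, had 6.98, 7.86, 8.14, 5.68, 6.51 and 6.38 in diabetic kidneys of 8 months and 4.56 to 5.04 in controls with a median of 4.82. All 6 diabetic arrays were above the controls, which were themselves below the filter value, so the size of the difference is set against a dim signal. The adjusted p was 4.28e-08 over all probe sets in limma. The exact permutation test gave 0.00216 for Krt8, Krt18, Krt19 and Krt20, the smallest p that 6 against 6 arrays can give.

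Vim had 10.07, 10.37, 11.02, 10.03, 9.23 and 10.11 in diabetic kidneys of 8 months and 9.13 to 9.45 in controls with a median of 9.24. Of the diabetic arrays 5 were above the highest control, and array 5 was within the control range. The adjusted p was 4.07e-05 in limma and the exact permutation test gave 0.00866. The other 2 probe sets of Vim were higher by 0.95 ± 0.17 and 1.09 ± 0.18, with adjusted p of 0.00016 and 4.28e-05 in limma, and array 5 was lowest of the diabetic arrays in both.

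**Figure D2:**
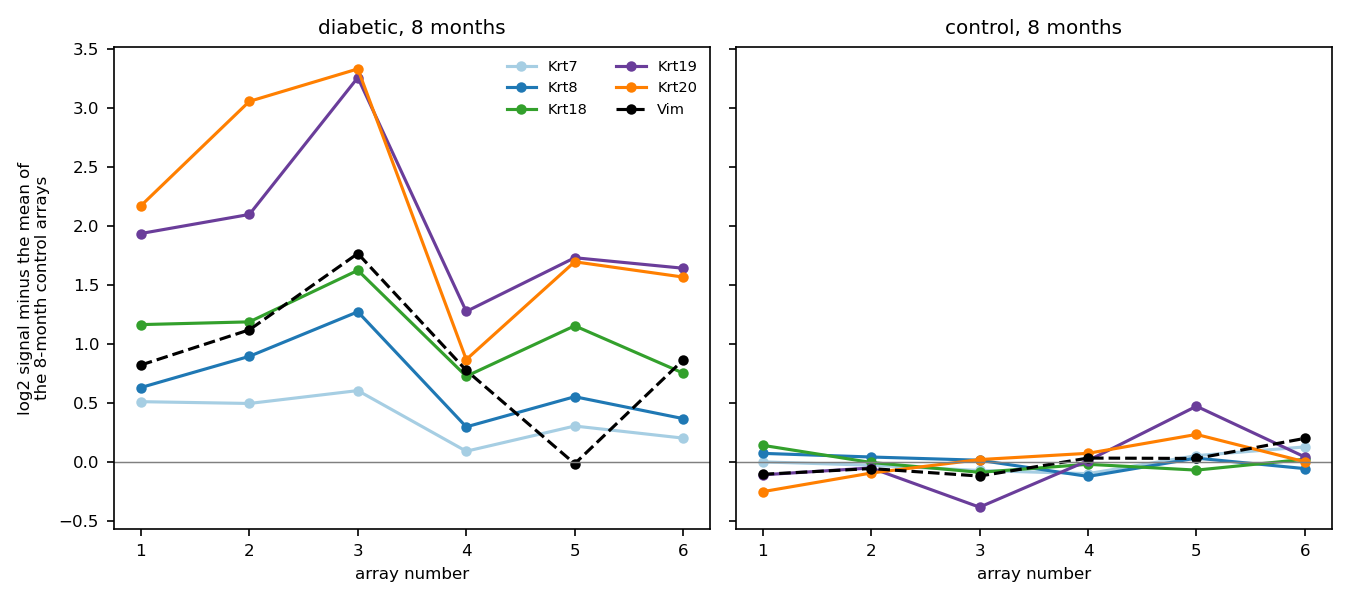
The panels plot, for the 6 diabetic arrays (left) and the 6 control arrays (right) of 8 months, each gene's log2 signal minus the mean of the 8-month controls (vertical axis) against the array number (horizontal axis); solid lines are keratins and the dashed line is Vim. Diabetic array 3 is highest for every gene, diabetic array 4 is lowest for the 5 keratins, and Vim is lowest on array 5.

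The diabetic arrays of 8 months thus differed among themselves in a common order. Krt8, Krt18, Krt19 and Krt20 ranked the 6 arrays identically (Spearman rho 1), with array 3 highest and array 4 lowest, and Krt7 had the same highest and lowest array. Correlations were computed for 27 relations over these 6 arrays, with exact permutation p and Benjamini-Hochberg adjustment over the 27. All 10 pairs of keratins passed, with r between 0.847 (Krt7 with Krt19) and 0.964 (Krt8 with Krt19). For the Krt8 and Krt18 pair r was 0.949 and rho was 1, with exact p of 0.00139 and 0.00278, adjusted to 0.00751 and 0.0125, and r was 0.972 without the 2 arrays farthest from the median of Krt8. For Krt18 with Krt20 r was 0.873, adjusted exact p 0.0489, and 0.604 without the 2 farthest arrays. The 5 pairs of Vim with a keratin had r between 0.501 and 0.746 and none passed, nor did the 12 relations of members with the injury genes Havcr1 and Lcn2 by r, which lay between 0.351 and 0.886. By rho, Vim with Havcr1 passed (rho 0.943, adjusted exact p 0.041). These relations share the arrays. The first principal component at 8 months ranked the 6 diabetic arrays exactly as Krt8, Krt18, Krt19 and Krt20 did, from array 3 down to array 4. The common order of these keratins was thus also that of the leading component over the whole arrays. The part of this component in the correlations was not tested.

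At 4 months Krt8, Krt18, Krt19, Krt20 and Vim had higher means in diabetic kidneys, and 1 member, Krt18, was called. Krt18 had 8.59, 8.64, 8.50, 8.14, 8.70, 8.64 and 8.46 in diabetic kidneys and 7.94, 8.01, 7.80 and 7.94 in controls. All 7 diabetic arrays were above the 4 controls, a separation upward that 2.37% of genes showed at that age, and the difference was 0.60 ± 0.14 (1.52-fold) with an adjusted p of 0.0204 in limma, where 0.969% of genes were called (0.372% of all probe sets) and 0.415% called higher. The call was lost without diabetic array 5 (0.57, adjusted p 0.0534 in limma), without control array 3 (0.56, 0.124) or control array 4 (0.61, 0.0858), and without both control arrays 3 and 4, which stood apart, the difference was 0.55 with an adjusted p of 0.558.

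Krt8 had 10.25 to 10.63 (median 10.38) in diabetic kidneys of 4 months and 10.08, 10.11, 10.19 and 10.22 in controls, without overlap, and differed by 0.25 ± 0.15 with an adjusted p of 0.592 in limma. Krt19 had 5.99 to 6.80 (median 6.34) in diabetic kidneys and 5.60, 5.77, 5.87 and 5.88 in controls, and differed by 0.52 ± 0.22 (adjusted p 0.359). Krt20 had 4.53 to 4.90 (median 4.77) in diabetic kidneys and 3.85, 4.29, 4.32 and 4.38 in controls, all below the filter value, and differed by 0.51 ± 0.24 (adjusted p 0.555 over all probe sets). Vim had 9.15 to 9.55 (median 9.36) in diabetic kidneys and 8.78, 8.84, 8.94 and 8.95 in controls, and differed by 0.49 ± 0.16 (adjusted p 0.166). For these 4 genes the groups did not overlap by the brightest probe set, but the limma test was not passed. The dimmest Krt8 probe set overlapped, with 6 of 7 diabetic arrays above the highest control, and differed by 0.24 ± 0.14. The other dimmer probe sets of Krt8 and Vim did not overlap. No dimmer probe set passed the limma test (adjusted p 0.5 to 0.72 over all probe sets). The exact permutation test gave 0.00909 for Krt8, 0.00606 for Krt19 and 0.00303 for Krt18, Krt20 and Vim, where 0.00303 is the smallest p that 7 against 4 arrays can give. Fitted on arrays of 4 months without the other ages, Krt20 and Vim were called too (adjusted p 0.0334 and 0.0104 in limma, that of Krt20 over all probe sets). That fit called 358 of 13004 genes, in place of 126. Krt7 had 9.36 to 9.76 (median 9.49) in diabetic kidneys and 9.43, 9.52, 9.53 and 9.54 in controls, overlapped, and differed by 0.02 ± 0.13 (exact permutation p 0.815).

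At 2 months no member was called, where 2.54% of genes and 0.836% of probe sets were, with 0.754% of genes called higher. With same-numbered arrays as a block, 553 genes were called in place of 330 and again 0 of the members. The differences of the 5 keratins were between -0.10 ± 0.12 (Krt7) and 0.12 ± 0.22 (Krt20), with limma adjusted p between 0.773 and 0.913, and 0 of the 6 members had an unadjusted p under 0.05. The 95% intervals allow differences from -0.35 to 0.15 for Krt7, from -0.34 to 0.23 for Krt8, from -0.19 to 0.33 for Krt18, from -0.52 to 0.32 for Krt19 and from -0.33 to 0.58 for Krt20. Krt8 had 9.88 to 10.95 (median 10.81) in diabetic kidneys and 10.28 to 10.77 (median 10.74) in controls, and the diabetic arrays 5 and 6 that stood apart were its 2 lowest, at 10.30 and 9.88. Without arrays 5 and 6 of both groups the difference of Krt8 was 0.10 in place of -0.05, with an adjusted p of 0.77. Krt18 had 8.07 to 8.70 (median 8.51) in diabetic kidneys and 8.01 to 8.81 (median 8.30) in controls, and Krt19 had 5.57 to 6.19 (median 5.86) and, in controls, 5.59 to 6.41 (median 6.04). Krt7 had 9.24 to 10.22 (median 10.00) in diabetic kidneys and 9.45 to 10.28 (median 10.04) in controls, and Krt20 had 4.75 to 4.94 (median 4.80) in diabetic kidneys and 4.57 to 4.88 (median 4.71) in controls. The groups overlapped for all 5 keratins.

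Vim was the 1 member whose groups did not overlap at 2 months. It had 9.32, 9.22, 9.52, 9.19, 9.64 and 9.32 in diabetic kidneys and 9.16, 9.10, 9.10, 9.04, 9.01 and 9.02 in controls, so that all 6 diabetic arrays were above the controls, as were 0.538% of genes. The difference was 0.30 ± 0.15 with an adjusted p of 0.337 in limma, and the exact permutation test gave 0.00216, the smallest p possible. The other 2 Vim probe sets differed by 0.08 ± 0.17 and 0.11 ± 0.18 and overlapped, with adjusted p of 0.911 and 0.885 in limma. In both, the highest control was array 6, the array with the high beta-actin ratio, at 9.05 and 8.58. The other controls were at most 8.77 and 8.09. The part of this array in the smaller differences was not tested.

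**Figure D3:**
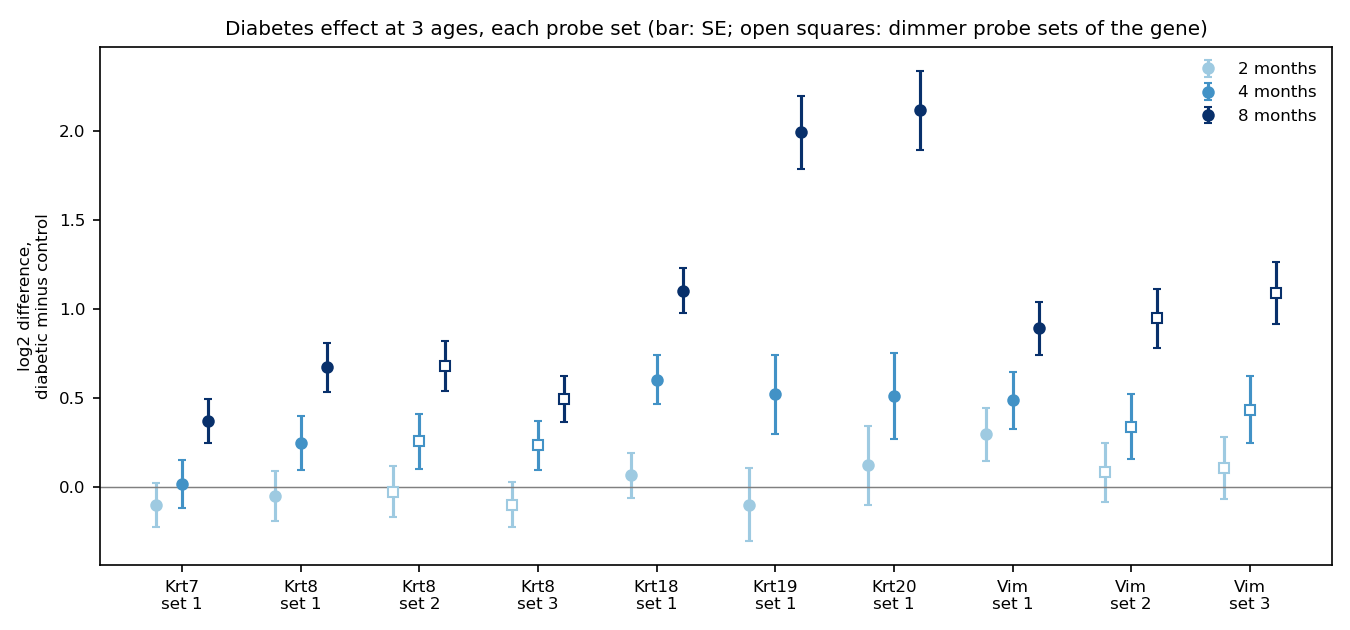
The log2 difference, diabetic minus control (vertical axis, points with SE bars), is plotted for each of the 10 probe sets (horizontal axis) at 2, 4 and 8 months in darkening blue; filled circles are the brightest probe set of a gene and open squares the dimmer ones. Differences at 8 months lie between 0.37 and 2.12, and those at 2 months between -0.10 and 0.30.

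Whether the effect differed between ages was tested directly. Between 8 and 2 months the difference of the effects was 2.09 ± 0.29 for Krt19 (adjusted p 3.09e-05 in limma), 1.99 ± 0.31 for Krt20 (0.000286 over all probe sets), 1.04 ± 0.18 for Krt18 (0.000635) and 0.72 ± 0.20 for Krt8 (0.032), all past the threshold, where 3.89% of genes, and 1.75% of probe sets, passed. The other 2 probe sets of Krt8 did not pass, at 0.71 ± 0.20 and 0.59 ± 0.18, with adjusted p of 0.0607 and 0.0866 over all probe sets in limma. For Vim it was 0.60 ± 0.21 (adjusted p 0.105) and for Krt7 0.47 ± 0.17 (0.128), neither past the threshold. The other 2 Vim probe sets did pass, at 0.86 ± 0.24 and 0.98 ± 0.25, with adjusted p of 0.0484 and 0.0279 in limma. In both, control array 6 of 2 months, with the high beta-actin ratio, was the highest control of that age, and its part was not tested. Between 8 and 4 months the difference of the effects was 1.47 ± 0.30 for Krt19 (adjusted p 0.0133) and 1.60 ± 0.33 for Krt20 (0.0157). The other 4 members, at 0.35 to 0.50, did not pass, where 0.877% of genes and 0.484% of probe sets did. Between 4 and 2 months 0 members passed (adjusted p between 0.751 and 1 in limma), and 0 of 13004 genes did, although 2 members (Krt18 and Krt19) and 660 genes had an unadjusted p under 0.05.

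By its brightest probe set, every member was highest across the 6 groups in diabetic kidneys of 8 months. This held with values as deposited and after quantile normalization over all arrays. Diabetic kidneys of 8 months differed from the next group in order for all 6 genes in limma, under both scalings. The order of the other 5 groups changed with the scaling for each member but Krt7. Of the 24 other pairs of neighbours 2 differed with values as deposited, one of Krt7 and one of Krt18, and neither differed after quantile normalization, where 2 other pairs of the same genes did: controls of 8 and of 2 months for Krt7 (adjusted p 0.0119) and diabetic kidneys of 4 and controls of 8 months for Krt18 (0.0479). After quantile normalization diabetic kidneys of 4 months came next for Krt8, Krt18, Krt19, Krt20 and Vim. The levels that follow are as deposited and, unless said otherwise, of the brightest probe set. Krt7 ran from 10.55 ± 0.20 in diabetic kidneys of 8 months through 10.18 ± 0.08 in controls of 8 months, 9.98 ± 0.29 in controls of 2 months and 9.88 ± 0.36 in diabetic kidneys of 2 months to 9.52 ± 0.13 in diabetic kidneys and 9.50 ± 0.05 in controls of 4 months (SD throughout), and the step of 0.36 between diabetic kidneys of 2 and 4 months had an adjusted p of 0.00792, against 0.03 and 0.83 after quantile normalization. Krt8 had its next highest mean, 10.65 ± 0.19, in controls of 2 months, and its lowest, 10.15 ± 0.06, in controls of 4 months. The dimmest Krt8 probe set was instead lowest at 8 months, at 9.08 ± 0.28 in diabetic kidneys and 8.58 ± 0.12 in controls. Its means at 2 and 4 months lay between 9.49 and 9.95. Krt18 came next at 8.53 ± 0.08 in controls of 8 months, almost level with 8.52 ± 0.19 in diabetic kidneys of 4 months, and its lowest mean, 7.92 ± 0.09 in controls of 4 months, was below the 8.34 ± 0.27 of controls of 2 months by 0.42 (adjusted p 0.00923), a step of 0.10 (0.569) after quantile normalization. Krt19 came next in diabetic kidneys of 4 months (6.30 ± 0.29), and its other 4 means lay between 5.78 and 6.01. Krt20 was at 4.82 or less in the other 5 groups. Vim came next in the younger diabetic kidneys, at 9.37 ± 0.18 at 2 months and 9.37 ± 0.16 at 4 months. Controls were at 9.25 ± 0.12, 9.07 ± 0.06 and 8.88 ± 0.08 for 8, 2 and 4 months. The step of 0.12 from diabetic kidneys of 4 months to controls of 8 months had an adjusted p of 0.465 in limma. By the other 2 Vim probe sets, controls of 8 months (9.28 and 8.49) were above diabetic kidneys of 2 months (8.74 and 8.17) and of 4 months (8.98 and 8.30). The mean over all probe sets was 6.43 to 6.44 at 2 months, 6.02 to 6.04 at 4 months and 6.54 at 8 months, so levels set across ages can carry the scaling of an age as well.

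The other genes of the cytoskeleton are given from lists, whose counts at 8 months stand beside 16.8% of all genes called and 9.87% called higher. Of 43 other keratin genes on the array 17 passed the filter, and 0 were called at 2, 4 or 8 months in limma, with 0, 1 and 1 at an unadjusted p under 0.05. Their median difference at 8 months was -0.08, where that of all genes was -0.00. The other keratins below the filter were not read from the fit over all probe sets, as Krt20 was. Counts of called members and of called other keratins are therefore not like for like. The mean signal over all 43 at 8 months was 5.13 to 5.37 on diabetic arrays and 5.20 to 5.36 on controls, close to the filter value. Among other intermediate filament genes 2 of 8 tested rose at 8 months and 0 fell. These were Lmna, encoding lamins A and C of the nuclear envelope (0.42 ± 0.11, adjusted p 0.00808 in limma), and Nes, encoding nestin, which podocytes also make (0.26 ± 0.08, adjusted p 0.0172). Of 18 cytolinker and desmosome genes, 2 rose and 1 fell, close to the share of all genes, and the 2 of 8 above are too few to set apart from it. Plec, whose plectin ties filaments together, rose by 0.42 ± 0.08 and Ppl, the periplakin gene, by 0.36 ± 0.10, while Dst, the dystonin gene, fell by 0.50 ± 0.11. At 2 months Evpl and Dsg2, chosen after their values were seen, were lower by 0.43 and 0.47, and neither was called at 8 months.

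Of 15 epithelial and injury transcription factors tested, 6 rose and 1 fell at 8 months, with a median difference of 0.34. Atf3, a stress-induced factor, rose by 1.57 ± 0.26, Klf4, an epithelial zinc finger factor, by 0.86 ± 0.15 and Fosl1, a subunit of AP-1, by 0.56 ± 0.14, while Tfap2b, a distal nephron factor, fell by 0.49 ± 0.11. Of 12 genes of epithelial to mesenchymal change, 4 rose and 1 fell. The list holds epithelial genes, such as Cdh1 and Epcam, beside mesenchymal ones, such as Acta2 and Cdh2, so this count has no single direction. Cd44, a hyaluronan receptor, rose by 2.89 ± 0.26, S100a4, also made by macrophages, by 1.40 ± 0.15 and Acta2, the smooth muscle actin gene, by 0.92 ± 0.15, while Cdh2, the N-cadherin gene, fell by 0.67 ± 0.16. At 4 months S100a4 was called higher (0.67, adjusted p 0.0395) and Cdh2 lower (-0.71, 0.027), in limma. Of 10 tubular injury markers 9 rose at 8 months, with a median of 1.29, among them Lcn2 (4.79 ± 0.35), Havcr1 (3.01 ± 0.28) and Anxa3 (1.31 ± 0.13). Cd44 is in this list as well.

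**Figure D4:**
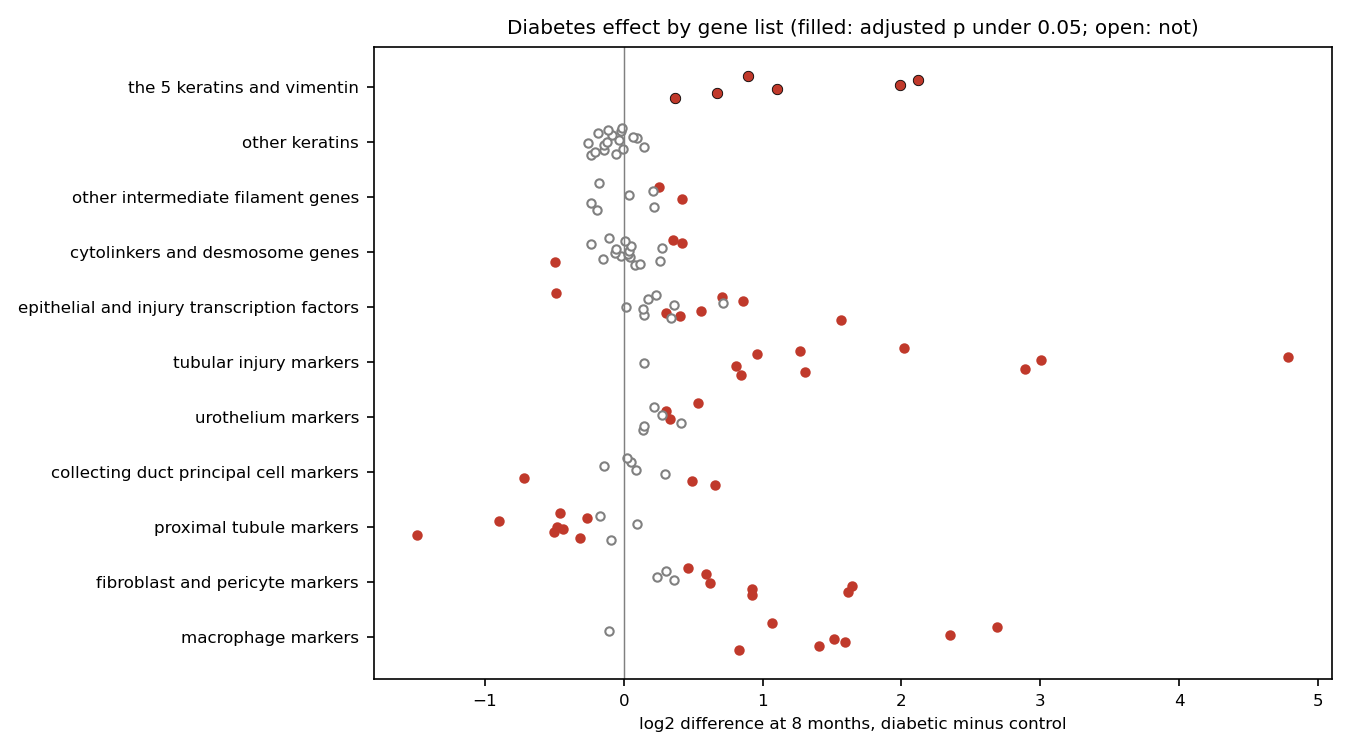
Each point is a gene, placed by its log2 difference at 8 months, diabetic minus control (horizontal axis), in rows by gene list (vertical axis); filled points were called at an adjusted p under 0.05 and open points were not, and Krt20 was called over all probe sets. The 17 other keratins lie around 0, while 9 of 10 injury markers and 7 of 8 macrophage markers are above it and called.

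Most tested markers of leukocytes and fibroblasts rose with Vim at 8 months, while of those of the other vimentin cells 0 of 8 endothelial and 1 of 7 podocyte markers rose. Of 8 macrophage markers 7 rose, with a median of 1.46, including Lyz2 (2.69 ± 0.23) and Cd68 (2.35 ± 0.21), and the mean signal over all 9 on the array was 8.42 to 9.91 on diabetic arrays and 7.39 to 7.76 on controls. Of 10 fibroblast and pericyte markers 7 rose, including Col1a1 (1.61 ± 0.33) and Pdgfrb (0.59 ± 0.17), with a mean of 8.07 to 10.17 on diabetic arrays and 7.50 to 8.49 on controls. All 4 lymphocyte markers that passed the filter rose, of 8 on the array, and the mean over the 8 was 5.75 to 7.18 on diabetic arrays and 5.60 to 5.76 on controls. The part of these cells in the higher Vim was not tested. Of 8 endothelial markers 0 were called at 8 months in limma, and 0 had an unadjusted p under 0.05.

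Urothelium, which lines the renal pelvis, makes Krt7, Krt19 and Krt20 as well. Of 8 urothelium markers 3 rose, Upk3b by 0.54 ± 0.15, Upk1a by 0.33 ± 0.10 and Upk2 by 0.30 ± 0.10, all plaque or related uroplakins, with a mean over all 10 on the array of 6.82 to 7.04 on diabetic arrays and 6.53 to 6.77 on controls. The part of urothelium in the keratin results was not tested. Of 8 principal cell markers of the collecting duct, Aqp2 and Aqp3 rose (0.66 ± 0.18 and 0.49 ± 0.18) and Aqp4 fell (-0.72 ± 0.17). Of 11 proximal tubule markers 0 rose and 8 fell, with a median of -0.44, among them Slc22a8, an organic anion transporter (-0.90 ± 0.20), Slc5a2, the SGLT2 glucose carrier (-0.46 ± 0.09), and Miox (-0.44 ± 0.10). Of 7 podocyte markers 1 rose, Nes, and 2 fell, Ptpro (-0.52 ± 0.09) and Nphs1 (-0.61 ± 0.12). Ucp1 (-2.20 ± 0.46) and Cidea (-2.22 ± 0.52), of 4 fat markers, fell, and both are genes of brown fat. The mean over all 5 fat markers on the array was 6.79 to 7.11 on diabetic arrays, inside the wide range of 5.83 to 8.38 on controls.

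The genes most like each member were those with the highest r over the 35 arrays after the mean of the controls of the same age was taken from each array, a description in which all genes share the arrays and the diabetes effect. For Krt20 they were Cd68 (r 0.961), Havcr1 (0.961), Cd44 (0.959), Ccl9 (0.957) and Il1f6 (0.956). For Krt19 they were Lyz2 (0.938), Lcn2 (0.928), Anxa3 (0.925), Ly6e (0.925) and Ccl9 (0.924), and for Krt18 Lyz1 (0.925), Smpdl3b (0.919), Lyz2 (0.904), Ly6e (0.901) and Lcn2 (0.894). Of these, Cd68 and the lysozyme genes Lyz1 and Lyz2 are genes of phagocytes, and Havcr1 and Lcn2 encode the kidney injury markers KIM-1 and lipocalin 2.

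For Krt8 they were Golm1 (0.919), Clu (0.906), Arpc5 (0.900), Sptlc2 (0.896) and Ifi30 (0.893), of which Clu, encoding the secreted chaperone clusterin, rose by 0.81 at 8 months. For Krt7 they were Ybx3 (0.887), Cfl1 (0.874), Cnih4 (0.860), Mal2 (0.860) and Sec11c (0.851). Vim was nearest to Tgfb1 (0.908), Ctsd (0.904), Anxa1 (0.899), Col5a2 (0.898) and Ankrd1 (0.888), a set that includes the growth factor gene Tgfb1 and the collagen gene Col5a2. Among members, the closest pairs were Krt19 with Krt20 (r 0.933) and Krt18 with Krt19 (0.897), and the least alike was Krt7 with Vim (0.461). With the mean of each group taken out, and so without the mean diabetes effect, the closest pair was Krt7 with Krt8 (0.771), Krt19 with Krt20 was at 0.666 and Krt18 with Krt19 at 0.642, and Krt7 with Vim was again least alike (0.188). Diabetic arrays 5 and 6 of 2 months, which stood apart, were lowest in their group for Krt7 (9.70 and 9.24) and Krt8 (10.30 and 9.88). The part of that split in the r of Krt7 with Krt8 was not tested.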

How the data were processed

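Values were probe set signals on a log2 scale as the authors deposited them, which their range shows. How they corrected background, summarized probes and normalized is not given in the sources used here. Per the labels' protocols, TRIzol was used for total RNA, and cRNA with biotin was made by the Affymetrix protocol. The members, gene lists and tests were chosen with earlier results of these data known.

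Of the probe sets, 34945 name 1 gene, 932 several and 9160 none, and control probe sets were left out. Each gene took its probe set of highest mean over 35 arrays. Genes below log2 5.27, the 40th percentile, were left out, which left 13004. limma 3.58.1 (R 4.3.3; files read with data.table, version 1.17.8) fitted group means to all 35 arrays, giving 29 residual degrees of freedom and 33.7 with moderation, and a gene was called at a Benjamini-Hochberg adjusted p under 0.05 over all genes. Krt20 and the dimmer probe sets were read from the same fit over 34945 probe sets without a filter. The spread is shared over groups, so standard errors may be too small where a group varies more. Diabetic arrays of 8 months varied most for Krt18, Krt19, Krt20 and Vim. Over all genes tested the median SD was 0.18 in each group of 2 months. It was 0.16 and 0.11 in diabetic and control arrays of 8 months, and 0.12 and 0.10 at 4 months. Standard errors at 4 months may thus be too large. With arrays of that age alone they were 0.10 for Krt20 and 0.084 for Vim, in place of 0.24 and 0.16. Exact permutation tests were two-sided and unadjusted. The script was tested on simulated data. Errors after differences are SEs, and after group means SDs.

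The named genes are the 6 members, the 5 genes most like each, other keratins called at any age, and, in every list, up to 4 called genes taken by smallest p at 8 months. Same-numbered diabetic and control arrays deviated together at 2 months (r from 0.246 to 0.444 in 6 of 6 pairs). At 4 and 8 months 1 of 4 and 2 of 6 pairs exceeded an r of 0.1. The labels do not say that the numbers mark pairs. Arrays 5 and 6 of both groups stood apart at 2 months, and this split can enter these r. The main fit had no term for pairs, and same-numbered arrays were a block only in an alternative fit. Figures were drawn with matplotlib.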

Additional observations from a re-analysis of the deposited data

Results flagged for a closer look

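In 3 of 36 groups of 4 to 7 arrays (6 genes, 6 groups) 1 array lay far from the others, and chance gives about 1 in 20. Krt8 had 10.28 on control array 5 of 2 months, where the nearest other array had 10.63, and this array is one of those that stood apart at that age. Krt18 had 8.14 on diabetic array 4 of 4 months, where the nearest had 8.46. Krt20 had 3.85 on control array 1 of 4 months, where the nearest had 4.29.

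The diabetes effect differed between ages by a test of the difference itself in limma. Between 8 and 2 months it was larger by 0.72 for Krt8, 1.04 for Krt18, 2.09 for Krt19 and 1.99 for Krt20, where 3.89% of genes and 1.75% of probe sets passed. The dimmer probe sets of Krt8 did not pass (adjusted p 0.0607 and 0.0866 in limma), while those of Vim did (0.0484 and 0.0279). For both of these Vim probe sets the highest control of 2 months was array 6, with the high beta-actin ratio. Between 8 and 4 months the diabetes effect was larger by 1.47 for Krt19 and 1.60 for Krt20, where 0.877% of genes and 0.484% of probe sets passed.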

How the results depend on the processing

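At 8 months the differences of Krt8, Krt18, Krt19, Krt20 and Vim kept their sign and their call in the alternatives that gave them a value, which the filter at the 60th percentile did not for Krt19 and Krt20, nor the mean of all probe sets for Krt20, and 6 members were called with quantile normalization. Krt7 was called with quantile normalization (adjusted p 0.0135 in limma) and not with median centring (0.37, 0.0505) or without diabetic arrays 3 and 4 (0.38, 0.0582), an alternative chosen after seeing the data. Leaving out 1 array at a time gave 5 to 6 members called and 1633 to 2329 genes at 8 months, 0 to 1 and 29 to 135 at 4 months, and 0 members and 192 to 515 genes at 2 months. The lowest and highest differences then were -0.21 and 0.027 for Krt7, -0.13 and 0.092 for Krt8 and -0.00084 and 0.16 for Krt18 at 2 months, and -0.022 and 0.045 for Krt7 at 4 months.

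At 2 months 330 genes were called, against 64 with arrays of that age alone, 1296 with array weights and 696 with arrays 5 and 6 as a batch term, with 0 members in each. The sign of Krt8 turned with array weights (0.054) and without arrays 5 and 6 (0.10). At 4 months 126 genes and 1 member were called, against 358 and 3 with arrays of that age alone, 942 and 3 with array weights, 5 and 0 without control arrays 3 and 4, and 124 and 3 with arrays of 2 and 4 months only, chosen after seeing the data (Krt18, Krt20 and Vim, the last 2 at adjusted p 0.0125 and 0.00586). Krt20 and Vim were called with arrays of that age alone (adjusted p 0.0334 and 0.0104 in limma), and Krt19 and Vim with array weights (0.0396 and 0.00332). Krt7 was at -0.012 without control arrays 3 and 4. With quantile normalization 71 genes were higher and 58 lower at 4 months, in place of 54 and 72. The causes were not tested.

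With same-numbered arrays as a replicate block, 553 genes were called at 2 months, and the block changed no call of a member there or at 8 months. At 4 months, where the samples share only a number, 0 members were called and Krt18 was at 0.54 (adjusted p 0.143 in limma). The number of members whose effect differed between 8 and 4 months fell to 0 with the block, in place of 2, with Krt19 at 1.57 (0.0766) and Krt20 at 1.49 (0.116).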
